A study of Mus musculus with 26 samples.

Results

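The *Prss* and *Tmprss* genes of the mouse, which encode secreted, membrane-tethered and transmembrane serine proteases, were followed in the initial segment (IS), the caput and the testis. All genes of the count tables whose symbol is *Prss* or *Tmprss* followed by a number were taken, without regard to their values. These were 55 of 23337 genes, 38 of them *Prss* and 17 *Tmprss* genes. RNA-seq counts came from ArKI mice, a line with a germline knock-in, and from wild-type (WT) mice. All were males of the C57Bl/6N; 129 hybrid strain at the age of 3 months, with 5 ArKI and 5 WT samples of the IS, 5 and 5 of the caput, and 3 and 3 of the testis. The knock-in was made in one hybrid embryonic stem cell line and is carried by every cell of the ArKI male. Gene counts cannot check this genotype.

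Trypsin-like serine proteases are made as inactive zymogens and cut peptide bonds after arginine or lysine with a catalytic triad of histidine, aspartate and serine. Tmprss proteins carry the protease domain outside the cell on a transmembrane stem, whereas Prss proteins are secreted or, as prostasin and testisin, held by a lipid anchor. In the testis several of them are made in germ cells and act in the acrosome or in the maturation of sperm surface proteins. In the epididymal duct they act among Kazal-type inhibitors, which the epithelium secretes in large amounts.

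Libraries held 5829074 to 9770625 counts (IS), 4125768 to 11913469 counts (caput) and 14077013 to 21376604 counts (testis). Levels are given as CPM, counts scaled to the size of the library. A signal of 3 counts was worth 0.307 to 0.515 CPM for IS libraries, 0.252 to 0.727 CPM for caput libraries and 0.140 to 0.213 CPM for testis libraries, limits that cover counting error only. The 55 genes together took 0.0134 to 0.0278% of the counts of an epididymal sample and 0.143 to 0.157% of the counts of a testis sample. The labelled testis and duct carried their defining markers. The summed level of 8 principal cell markers was 20360 to 38930 CPM in the WT IS and caput and 14.9 to 18.7 CPM in the WT testis. That of 13 late spermatid and sperm markers was 23490 to 28200 CPM in the WT testis. Single principal cell markers differed between the segments. *Lcn8* had 13670 ± 490 CPM (SD) in the WT IS and 518 ± 545 CPM in the WT caput, where the samples were uneven. *Rnase9* had 13.9 ± 3.67 CPM in the WT IS and 6112 ± 704 CPM in the WT caput. Markers of the exocrine pancreas summed to at most 0.249 CPM in the WT duct, with *Cpa1* and *Pnlip* at 0 in every IS and caput sample. The duct and the testis came from different sequencing runs, and wherever the testis is set against the duct, run and tissue cannot be told apart.

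The stretch around the catalytic serine shows how the genes divide, and it is given for the genes on which the results turn. It was read from the longest open reading frame of each gene's GENCODE M21 coding transcripts. Capitals mark the codon at the place of the catalytic serine, within 39 bases of the coding strand.

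Prss8: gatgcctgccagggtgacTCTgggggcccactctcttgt
Prss36: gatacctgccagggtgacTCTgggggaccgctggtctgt
Prss33: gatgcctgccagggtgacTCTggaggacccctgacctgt
Tmprss6: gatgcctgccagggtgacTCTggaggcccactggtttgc
Prss39: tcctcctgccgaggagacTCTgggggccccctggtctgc
Prss12: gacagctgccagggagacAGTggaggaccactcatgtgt
Tmprss2: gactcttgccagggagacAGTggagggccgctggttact
Tmprss13: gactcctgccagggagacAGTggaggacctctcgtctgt
Prss55: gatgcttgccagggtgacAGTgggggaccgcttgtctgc
Prss45: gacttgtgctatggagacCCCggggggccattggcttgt

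The serine was looked for as a serine codon with glycine or alanine and then aspartate before it, and glycine and then glycine or alanine after it. In this form it was found in 44 of the 55 genes. The codon began with TC in 34 genes, 23 *Prss* and 11 *Tmprss*, among them *Prss8*, *Prss33* and *Prss39* above. It was AGT or AGC in the other 10, namely *Prss12*, *Prss51*, *Prss52*, *Prss55*, *Tmprss2*, *Tmprss3*, *Tmprss4*, *Tmprss5*, *Tmprss12* and *Tmprss13*. *Prss45* had CCC, a proline codon, at this place. The 11 genes in which the motif was not found in this form were *Prss16*, *Prss23*, *Prss35*, *Prss37*, *Prss38*, *Prss43*, *Prss45*, *Prss46*, *Prss50*, *Prss54* and *Prss58*. *Prss16* encodes a thymic peptidase of another fold, and *Prss23* and *Prss35* encode a pair of related, atypical secreted proteases.

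All 55 genes were placed on GRCm38, the build of the deposited counts (mm10), and 34 of them lay in 8 groups of neighbours no more than 100 kb apart. On chromosome 9 the group *Prss42*, *Prss44*, *Prss43*, *Prss45*, *Prss46* and *Prss50* lay at chr9:110797248-110864629, and on chromosome 14 *Prss55*, *Prss51* and *Prss52* lay at chr14:64075435-64113751. *Prss53*, *Prss8* and *Prss36* lay together at chr7:127885444-127946725. *Prss33* lay at one end of a group of 7 genes, chr17:23833338-24045949, that also held *Prss21* and *Prss41*. The 7 *Tmprss11* genes formed one group at chr5:86231481-86745807.

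Levels in WT mice were then compared between the testis and the duct. Of the 55 genes 33 passed the filter on low counts over the 13 WT samples, and 25 of these were higher in the testis than in the mean of IS and caput, with an FDR under 0.01 and more than 2-fold, and 5 were lower. Over all 16402 genes tested the shares were 38.1% higher and 31.1% lower. A gene read in the testis alone passes this filter only through the samples in which it is high, so the 25 of 33 in part restate the filter and are given as a description. With scaling by library size or upper-quartile factors the median log2 difference of all genes moved from 0.17 to -0.23 and -0.32, and the 25 became 23 and the 5 became 7 under either scaling.

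**Figure D1:**
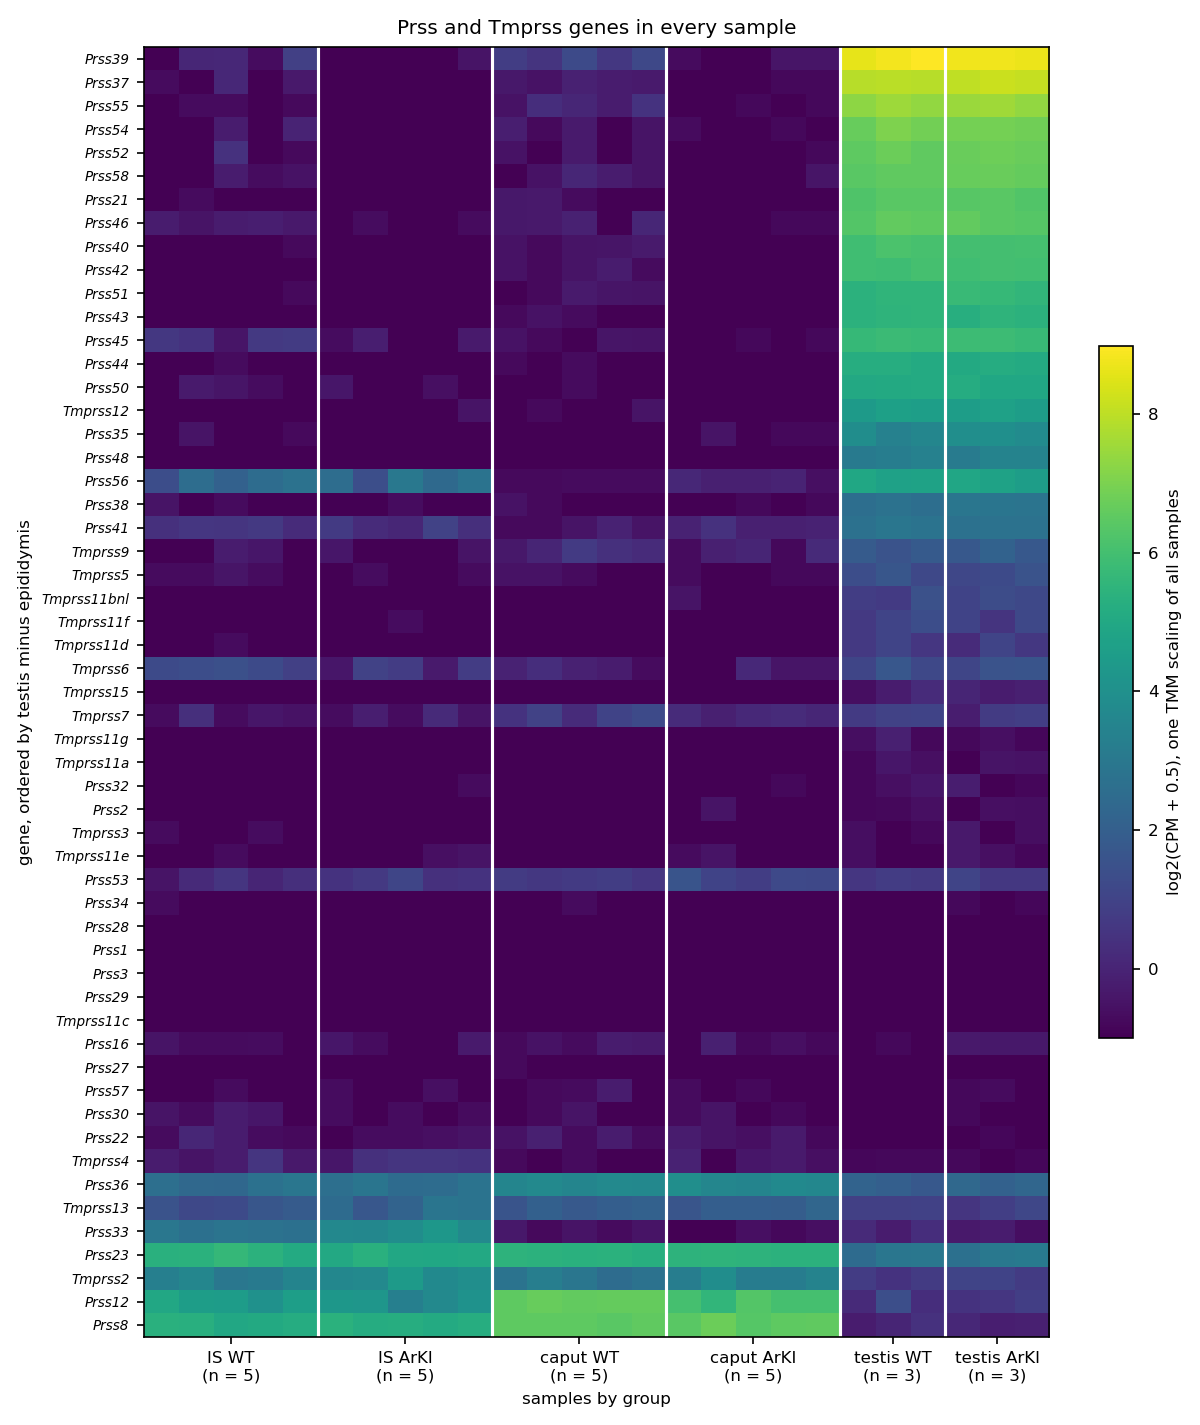
Level of the 55 genes in all 26 samples as log2(CPM + 0.5), with one TMM scaling of all samples, by group (columns) and ordered by testis minus epididymis (vertical axis). The upper genes are brightest in the 6 testis samples, the lowest genes, from *Prss36* to *Prss8*, include those with higher levels in the IS or caput, and *Prss56* is seen in the testis and the IS.

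A set of 19 genes, 18 *Prss* genes and *Tmprss12*, had a fitted log2 difference above 6, a limit chosen after the values were seen. Just inside it was *Prss38* with 6.30 and just outside it *Prss56* with 5.30. These 19 are called testis proteases below, after their gene symbols and not for a shown protease activity. The ratio of their summed counts per total count, testis to epididymis, ran from 70.9 for *Prss38* to 883 for *Prss44*, with a median of 438. In 11 of the 19 no WT epididymal sample had more than 3 counts, so these ratios have wide counting intervals, 301 to 4290 (exact 95%) for *Prss44*. This interval and those of all count ratios given here pool the reads of a group, so they cover counting error only and leave out the spread between mice. *Prss48* had no count in the 10 WT epididymal samples and was at least 218-fold higher in the testis, taking 3 counts over the group as the floor. All genes of the chromosome 9 and chromosome 14 groups were in the set, and so were the neighbours *Prss39* and *Prss40* on chromosome 1. The serine motif was found in 10 of the 19 testis proteases and in 34 of the other 36 genes.

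The order of levels within the WT testis was taken per kb of exon. *Prss39* (Tesp1, an acrosomal protease) came first with 353 ± 47.2 CPM per kb (SD, n = 3), followed by *Prss37* with 233 ± 5.02 and *Prss55* with 155 ± 13.2, and the ranges of these 3 genes did not overlap. *Prss37* and *Prss55* are known to be needed for sperm to pass from the uterus into the oviduct and for the processing of ADAM3. *Prss58* with 92.9 ± 4.44 and *Prss52* with 91.0 ± 7.42 CPM per kb came next, and their ranges overlapped. *Prss54* (77.5 ± 9.88) and *Prss21*, which encodes testisin (75.3 ± 6.54), overlapped each other too.

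The duct had its own, shorter set. Lower in the testis than in the duct were *Prss8* (log2 difference -6.55 ± 0.15, SE), *Prss12* (-5.28 ± 0.26), *Tmprss2* (-2.80 ± 0.22), *Prss23* (-2.58 ± 0.12) and *Prss36* (-1.11 ± 0.15), by edgeR's quasi-likelihood test with adjusted p between 2.3e-22 and 2.2e-07. *Prss8* (5 to 10 counts per WT testis sample), *Prss12* (9 to 25) and *Tmprss2* (10 to 17) passed the filter through the duct, where they are high. Their differences are therefore a description only. In the WT IS, *Prss8* had the highest level per kb, 19.2 ± 1.99 CPM per kb (SD, n = 5). *Prss23* with 12.3 ± 1.68 and *Prss12* with 8.99 ± 2.09 overlapped each other, and *Prss33* with 4.66 ± 0.42 and *Tmprss2* with 3.01 ± 0.57 followed. In the WT caput the order was *Prss8* with 48.7 ± 1.67, *Prss12* with 37.1 ± 1.79, *Prss23* with 12.0 ± 0.67, *Prss36* with 3.82 ± 0.22 and *Tmprss2* with 2.17 ± 0.44 CPM per kb, and no neighbours in that order overlapped.

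Within the duct of WT mice, *Prss8*, *Prss12* and *Prss36* were lower in the IS than in the caput, and *Tmprss6*, *Prss33* and *Prss56* were higher. These were 3 and 3 of 9 genes tested, where 11.1% of all genes were lower and 9.71% higher. The 3 higher genes had at most 7 counts in any WT caput sample and passed the filter through the IS, where they are high, so their count is a description only. With no filter beyond 1 count, 7 of 42 were lower and 6 higher, against 10% and 8.79% of all genes. *Prss12*, which encodes neurotrypsin, a secreted protease that cleaves agrin, showed a log2 difference of -2.04 ± 0.12 (edgeR adjusted p = 1.9e-08). *Prss8*, which encodes prostasin, an activator of the epithelial sodium channel, showed -1.34 ± 0.06 (adjusted p = 9.3e-14), and *Prss36*, a secreted protein with several protease domains in tandem, -1.09 ± 0.12 (adjusted p = 1.5e-07). *Tmprss6*, which encodes matriptase-2, a cleaver of hemojuvelin in the liver, was higher in the IS by 2.09 ± 0.34 (adjusted p = 1.5e-05). *Prss33* had 281 counts over the 5 WT IS samples and 9 over the 5 WT caput samples, a ratio per total count of 33.4 (exact 95% interval 17.3 to 73.7, counting error only). *Prss56*, known for its part in eye growth, had 204 and 5 counts, a ratio of 43.6 (18.4 to 136). *Tmprss2* (0.47 ± 0.15, adjusted p = 0.0092) stayed below the fold limit, *Tmprss13* showed -0.45 ± 0.21 (adjusted p = 0.057), and *Prss23* showed 0.02 ± 0.08 (adjusted p = 0.80).

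Many of the 55 genes gave no or next to no counts in the duct. In the IS, 14 had 0 counts in all 10 samples and 36 had at most 3 counts in every sample. In the caput these were 12 and 35, and in the testis 6 and 12. *Prss1*, *Prss3*, *Prss28*, *Prss29* and *Tmprss11c* had no count in any of the 26 samples. *Prss1* and *Prss3* encode pancreatic trypsins, and *Prss28* and *Prss29* encode proteases of the implantation-stage uterus. A further 5 genes, *Prss2*, *Prss27*, *Prss30*, *Prss34* and *Prss57*, never exceeded 3 counts. Lower levels than the limits above were not detectable at this depth.

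In the IS 9 of the 55 genes passed the filter and were compared between ArKI and WT. *Prss33* and *Tmprss13* were upregulated more than 2-fold with an FDR under 0.01, and none was downregulated. Over all 13434 genes tested these shares were 2.72% and 1.32%. At an adjusted p below 0.05 and any fold, *Prss33*, *Tmprss13* and *Tmprss2* were higher and *Prss12*, *Prss23* and *Tmprss6* were lower, 6 of 9 genes, where the share of all genes was 29.6%. One of the 6, *Tmprss6*, had enough counts for the filter in every WT sample but not in every ArKI sample, and was tested because it is high in WT. The median log2 fold change of the 9 genes was 0.09 and that of all genes 0.00. In 2 of the 9, *Prss33* and *Tmprss2*, every ArKI sample lay above every WT sample, as in 9.53% of all genes tested.

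*Prss33* lies on the minus strand at chr17:23833338-23836693 and encodes a secreted trypsin-like protease. Its level was 7.63, 6.17, 7.10, 6.68 and 6.25 CPM in the 5 WT samples and 12.9, 12.5, 15.3, 20.1 and 13.2 CPM in the 5 ArKI samples of the IS. All ArKI samples lay above all WT samples, and the log2 fold change was 1.12 ± 0.14 (SE; edgeR adjusted p = 5.4e-06). Without ArKI replicate 4, the highest sample, it was 0.99, just under the fold limit.

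*Tmprss13*, at chr9:45318988-45347581 on the plus strand, encodes a transmembrane protease known from the barrier function of the skin. Its level was 2.54, 1.83, 1.99, 2.84 and 3.33 CPM in the WT IS and 5.43, 2.96, 4.33, 7.33 and 6.93 CPM in the ArKI IS. Only ArKI replicate 2 fell within the range of the WT samples. This gave a log2 fold change of 1.10 ± 0.25 (edgeR adjusted p = 0.0021). It fell just under the fold limit, to 0.98, 0.98 and 0.99, without ArKI replicate 4, ArKI replicate 5 or WT replicate 2.

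*Tmprss2*, at chr16:97564682-97659541 on the minus strand, encodes the transmembrane protease best known as an androgen-induced gene of the prostate. Its level was 10.1, 12.2, 7.73, 8.66 and 11.6 CPM in the WT IS and 12.5, 13.1, 22.5, 13.6 and 15.6 CPM in the ArKI IS. The lowest ArKI sample lay just above the highest WT sample. Its log2 fold change was 0.61 ± 0.17 (edgeR adjusted p = 0.011).

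Lower levels were seen for 3 genes of the IS, none of them past the FDR limit of 0.01 by edgeR as fitted here. *Prss12*, at chr3:123446913-123506602 on the plus strand, had 33.1, 24.5, 23.6, 17.0 and 25.3 CPM in the WT IS and 20, 19.3, 9.95, 13.1 and 17.4 CPM in the ArKI IS. The groups overlapped through WT replicate 4, the lowest WT sample. A log2 fold change of -0.63 ± 0.21 was found (edgeR adjusted p = 0.044), and the adjusted p rose above 0.05 in 7 of 16 alternatives, 6 of them with one sample left out. It was 0.0046 by DESeq2. With the replicate number as a block it was 0.00049, but no label pairs same-numbered ArKI and WT samples, so no weight rests on that value. *Prss23*, at chr7:89507783-89527187 on the minus strand, had 42.6, 43.3, 53.1, 45.2 and 36.3 CPM in the WT IS and 33.5, 41.7, 33.3, 31.9 and 34.1 CPM in the ArKI IS. All ArKI samples but replicate 2 lay below all WT samples. Its log2 fold change was -0.33 ± 0.09 (edgeR adjusted p = 0.012), and the adjusted p was 0.0089 by DESeq2 and 0.0097 with no filter on low counts. With the replicate block, again a pairing by number alone, it was 0.0094.

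*Tmprss6*, at chr15:78439667-78468648 on the minus strand, was near the limit of detection. It had 1.94, 2.17, 2.37, 1.99 and 1.46 CPM in the WT IS and 0.265, 1.55, 1.30, 0.341 and 1.29 CPM in the ArKI IS. The WT samples had 14 to 19 counts and the ArKI samples 2 to 11, so that it passed the filter through WT. ArKI replicates 1 and 4 had 2 counts each, and replicate 2 lay above the lowest WT sample. By edgeR the log2 fold change was -1.01 ± 0.35 (adjusted p = 0.035), and the adjusted p rose above 0.05 in 6 of 16 alternatives, each of which left out one sample.

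The other 3 genes tested in the IS did not pass either limit. *Prss8* had 42.1, 40.6, 32.9, 35.1 and 37.5 CPM in WT and 44.0, 38.0, 39.1, 36.0 and 38.7 CPM in ArKI, a log2 fold change of 0.06 ± 0.08 (edgeR adjusted p = 0.62). *Prss36* showed 0.09 ± 0.16 (adjusted p = 0.73) and *Prss56* 0.20 ± 0.32 (adjusted p = 0.69). For each of them the ArKI and WT samples overlapped.

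Markers of other cells moved in the IS beside these genes. The summed level of 4 smooth muscle markers was 467 to 516 CPM in WT and 201 to 360 CPM in ArKI, with all 4 lower at an adjusted p below 0.05. The summed level of 8 leukocyte markers was 251.6 to 361.2 CPM in WT and 377 to 574 CPM in ArKI, with 2 of 7 tested higher and 1 lower. The 2 higher were *Cd74* (mean 105 CPM in WT and 199 in ArKI) and *H2-Aa* (48.8 and 97.4 CPM). *Csf1r* was lower (-0.54 ± 0.10, edgeR adjusted p = 0.00067), and the other markers tested did not pass 0.05. The 3 basal cell markers summed to 261 to 310 CPM in WT and 204 to 233 CPM in ArKI, with 2 lower, and the 8 principal cell markers to 35260 to 38930 and 25640 to 29290 CPM, with 4 lower and 1 higher. Their part in the differences of the proteases was not tested, and in whole tissue fewer cells of a type and less RNA per cell cannot be told apart.

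**Figure D2:**
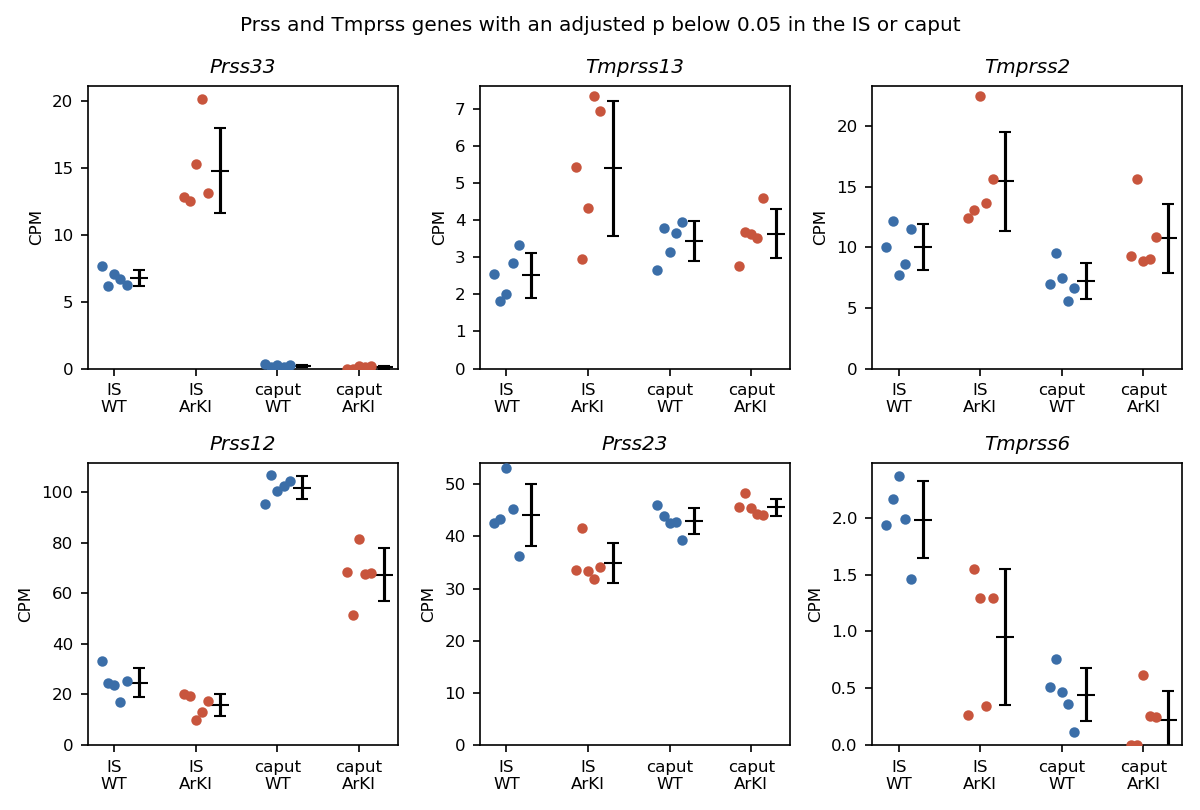
CPM of the 6 genes with an adjusted p below 0.05 in the IS or caput (vertical axes from 0), in every sample (points) of the 4 epididymal groups, with mean and SD (n = 5) beside the points. *Prss33* separates ArKI from WT in the IS and is near 0 in the caput, and *Prss12* is lower in ArKI in both segments and several-fold higher in the caput.

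In the caput 7 genes were compared, and none passed the FDR limit of 0.01 together with the fold limit, where 2.43% of all 13726 genes were higher and 2.55% lower. At an adjusted p below 0.05 and any fold, *Tmprss2* was higher and *Prss12* lower, 2 of 7 genes, against 27.7% of all genes. By edgeR, 3 of the 7 had an unadjusted p below 0.05, as at least 27.7% of all genes did. The median log2 fold change was 0.08, against 0.00 for all genes. In 1 of the 7, *Prss12*, every ArKI sample lay below every WT sample, as in 10.4% of all genes. Beside these genes the summed level of the 8 leukocyte markers was 169 to 216.0 CPM in the WT caput and 259 to 437 CPM in the ArKI caput, with 3 of 6 tested higher at an adjusted p below 0.05. The ranges of the 4 smooth muscle, 3 basal cell and 8 principal cell markers overlapped between the genotypes. The part of these cells in the differences of *Prss12* and *Tmprss2* was not tested.

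*Prss12* had 95.1, 107, 100, 102 and 104 CPM in the WT caput and 68.5, 51.4, 81.3, 67.5 and 68.2 CPM in the ArKI caput. It fell by 0.58 ± 0.09 on the log2 scale (edgeR adjusted p = 0.00015). The effect in the caput minus that in the IS was 0.04 ± 0.22 (adjusted p = 0.93 for the interaction). *Tmprss2* had 6.95, 9.53, 7.46, 5.59 and 6.64 CPM in the WT caput and 9.25, 15.7, 8.90, 9.07 and 10.8 CPM in the ArKI caput. Replicate 2, the ArKI sample with the fewest counts, was the highest, and WT replicate 2 reached into the range of the ArKI samples. On the log2 scale it rose by 0.52 ± 0.17 (edgeR adjusted p = 0.028), and the adjusted p rose to between 0.055 and 0.072 without ArKI replicate 5 or WT replicates 1, 4 or 5.

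*Prss8*, the first of the caput by level, had 97.1, 95.7, 94.7, 89.7 and 98.0 CPM in WT and 90.7, 114, 83.8, 94.4 and 96.8 CPM in ArKI, a log2 fold change of 0.00 ± 0.07 (edgeR adjusted p = 0.97). *Prss23* had 46.1, 43.9, 42.7, 42.8 and 39.2 CPM in WT and 45.7, 48.4, 45.4, 44.3 and 44.1 CPM in ArKI (0.08 ± 0.06, adjusted p = 0.33). *Prss36* had 11.8, 13.0, 11.9, 13.3 and 12.7 CPM in WT and 15.6, 12.4, 11.4, 13.4 and 12.1 CPM in ArKI (0.05 ± 0.10, adjusted p = 0.76). The genotypes overlapped for all 3 genes. *Tmprss13* showed 0.09 ± 0.19 (adjusted p = 0.77). *Prss53*, a further protein with protease domains in tandem, showed 0.65 ± 0.25 (adjusted p = 0.063), but 1636 of its 2134 exon bases are shared on the same strand with *Gm21974*, so its counts are uncertain. *Prss56* did not pass the filter, with 1 count in each WT caput sample and 5, 2, 5, 6 and 2 counts in the ArKI samples (exact permutation p = 0.0079, two-sided, the smallest that 5 against 5 samples allow, unadjusted for the 36 genes below the filter that were tested). Such a separation upwards was seen in 1.29% of the genes below the filter with at least 1 count in the caput, and in 1 of the 36.

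The ArKI effects in the 2 segments were set against each other by an interaction term over the 20 epididymal samples. None of 10 genes passed an adjusted p of 0.01, where 8.18% of all 14329 genes did. That fit treated the samples as independent, although IS and caput came from 5 mice of each genotype, and with the replicate number as a block 1 of the 10, *Prss23*, passed, where 7.97% of all genes did. At 0.05 there were 2 of 10, against 15.1% of all genes. *Prss23*, lower in the ArKI IS, had an effect 0.41 ± 0.11 higher on the log2 scale in the caput than in the IS (edgeR adjusted p = 0.012). *Tmprss13* had an effect 1.01 ± 0.32 smaller in the caput (log2 difference -1.01, adjusted p = 0.031). *Prss33* had at most 3 counts in each WT and ArKI caput sample, so its effect there was not detectable at this depth.

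In the testis 34 of the 55 genes were compared. None was called at the study's limits (FDR under 0.2, more than 2-fold), where 0.751% of all 15838 genes were higher and 0.0821% lower. None had an adjusted p below 0.05, as 1.96% of all genes did. By edgeR 2 of the 34 had an unadjusted p below 0.05, for which the share of all genes was not taken. Of the log2 fold changes 17 were above and 17 below 0, from -0.51 ± 0.35 for *Tmprss7* to 0.35 ± 0.29 for *Tmprss2*, with a median of 0.00, the same as for all genes. In 4 of the 34, *Prss37*, *Prss38*, *Prss51* and *Prss58*, every ArKI sample lay above every WT sample, as in 9.35% of all genes.

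The 19 testis proteases lay close together in this comparison. Their log2 fold changes ran from -0.10 for *Prss44* to 0.25 for *Prss35*, with a median of 0.03, 10 above and 9 below 0, and the largest SE was 0.142. The smallest adjusted p among them was 0.30. *Prss39* had 329, 375 and 431 CPM in WT and 369, 355 and 340 CPM in ArKI (log2 fold change -0.09 ± 0.08). *Prss37* had 207, 208 and 204 CPM in WT and 220, 235 and 227 CPM in ArKI (0.14 ± 0.06, edgeR adjusted p = 0.30). For *Prss37* all ArKI samples were higher than all WT samples, yet it did not pass the test over all genes. *Prss55* had 134, 154 and 139 CPM in WT and 152, 154 and 136 CPM in ArKI (0.06 ± 0.07). *Prss58* had 73.2, 77.9 and 79.7 CPM in WT and 84.2, 85.8 and 81.7 CPM in ArKI (0.13 ± 0.07, adjusted p = 0.42). *Prss52* had 78.0, 88.3 and 79.1 CPM in WT and 88.0, 89.2 and 86.7 CPM in ArKI (0.11 ± 0.07), with overlapping groups. Beside them, the 13 late spermatid and sperm markers summed to 23490 to 28200 CPM in WT and 25730 to 28820 CPM in ArKI.

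**Figure D3:**
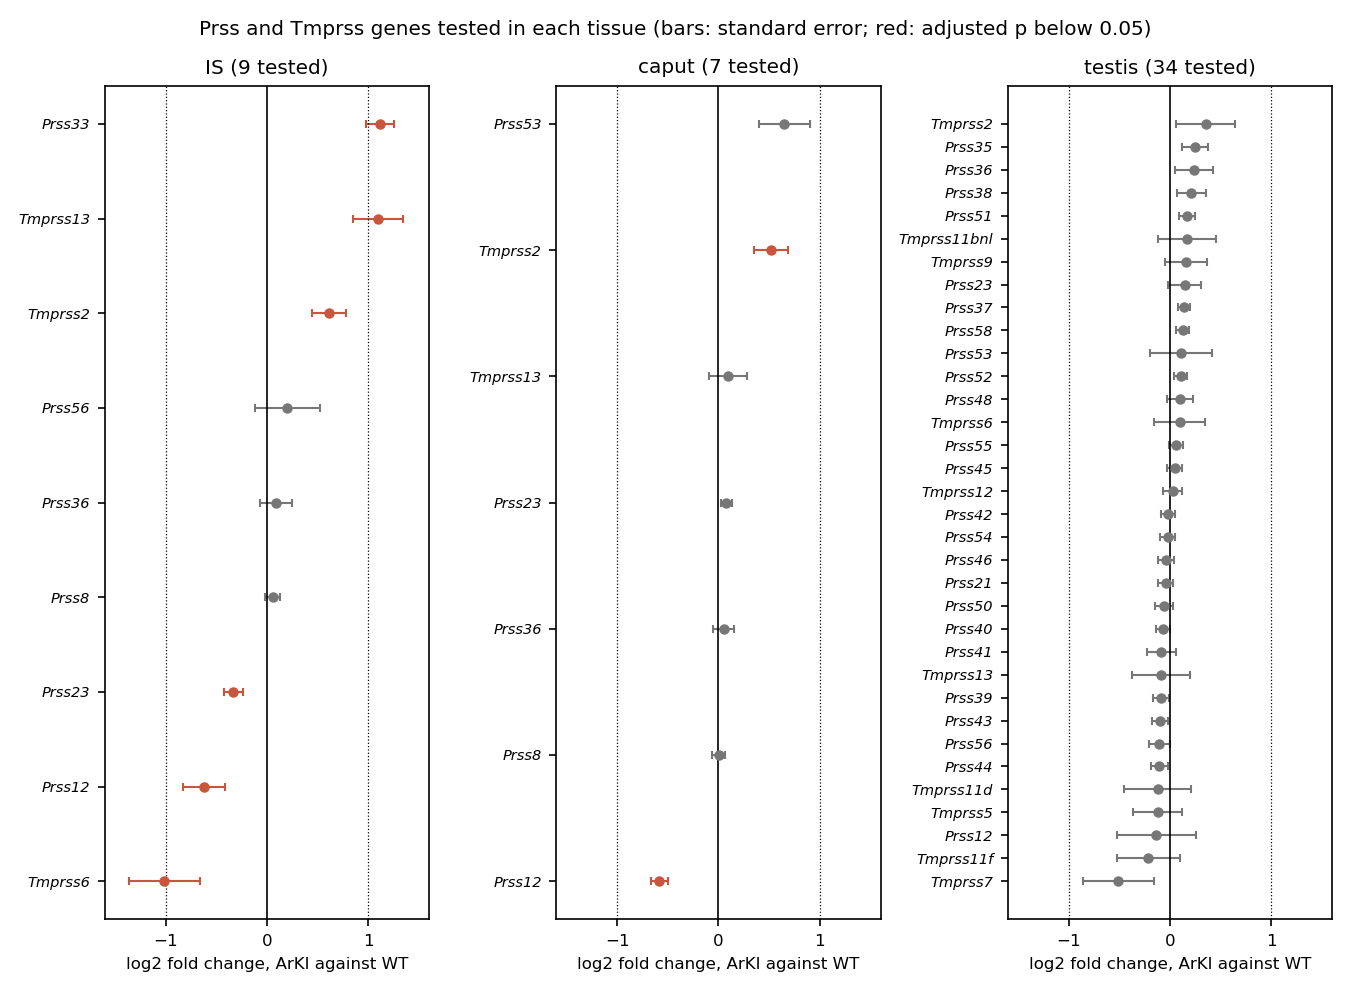
Log2 fold change of ArKI against WT (horizontal axis) with its standard error for each gene tested in the IS, the caput and the testis (vertical axis), with dotted lines at a fold change of 2. The IS spans -1.01 to 1.12 and the caput -0.58 to 0.65, and the testis -0.51 to 0.35, with the 19 testis proteases between -0.10 and 0.25.

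The testis proteases left traces in the duct, fewer in ArKI samples than in WT samples. Over the 19 genes the WT caput samples held 27 to 52 counts each, 202 in all, and the ArKI caput samples 1 to 13, 26 in all. The WT IS samples held 14 to 44 counts, 128 in all, and the ArKI IS samples 1 to 8, 17 in all. In both segments every ArKI sample lay below every WT sample. None of the 19 passed the filter in either segment, so the comparisons across all genes above do not hold them. The sum in the caput was lower in ArKI for 17 of the 19, higher for *Prss35* with 3 counts against 0, and 0 in both for *Prss48*. In the IS it was lower for 15, higher for *Tmprss12* with 2 counts against 0, and 0 in both for 3. For *Prss21*, *Prss40*, *Prss44* and *Prss51* in the IS it was 1 count in WT against 0. These sums are not scaled to library size. The IS libraries held 5829074 to 8365852 counts in ArKI and 7121937 to 9770625 in WT. The share of all genes below the filter with a lower sum was not taken, so both tallies are a description only.

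*Prss39* led the traces as it led the testis, with 13, 9, 17, 9 and 16 counts in the WT caput and 1, 0, 0, 3 and 3 in the ArKI caput. Its ratio of ArKI to WT, per total count, was 0.104 (exact 95% interval 0.0401 to 0.226, counting error only). *Prss55* followed with 2, 7, 5, 3 and 8 counts in WT and 0, 0, 1, 0 and 1 in ArKI, a ratio of 0.0758 (0.0087 to 0.304). *Prss37* had 2 to 4 counts in each WT sample and 0 or 1 in each ArKI sample, and *Prss40* and *Prss42* had 1 to 3 and 0. For these 5 genes every ArKI sample lay below every WT sample. Each gave an exact permutation p of 0.0079 (two-sided, the smallest that 5 against 5 samples allow). Adjusted over the 36 genes below the filter that were tested, this p was 0.048. Such a separation downwards was seen in 3.63% of the genes below the filter with at least 1 count in the caput. In the IS it was seen in 1.73% of such genes and in 1 of the 19, *Prss46*. This gene had 3, 2, 3, 3 and 3 counts in WT and 0, 1, 0, 0 and 1 in ArKI. Its exact permutation p was 0.0079, and 0.25 when adjusted over the 32 genes below the filter that were tested. *Prss45* had the most counts in the IS, 9, 8, 2, 8 and 12 in WT and 1, 3, 0, 0 and 3 in ArKI, a ratio of 0.212 (0.0802 to 0.48, counting error only).

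With no filter beyond 1 count, edgeR called *Prss39*, *Prss40* and *Prss55* lower in the ArKI caput (adjusted p = 2.8e-05, 0.0075 and 0.0012), 3 of 43 genes, where 3.19% of all genes were called lower. At an adjusted p below 0.05 and any fold it gave 10 of 43 lower, against 11.8% of all genes. Of these 8 were testis proteases and the other 2 were *Prss12* and *Tmprss7*. In the IS it called *Prss45* lower (adjusted p = 0.0067), 1 of 41 genes, against 1.45% of all genes, and gave 6 of 41 at an adjusted p below 0.05, against 11.7%. The 4 testis proteases among these 6 were *Prss37*, *Prss39*, *Prss45* and *Prss46*. In the testis it called 1 of 49 genes higher, *Prss16*, against 0.764% of all genes.

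In the duct, sperm and late spermatid markers were lower in ArKI samples too. All 13 were lower in the ArKI caput at the limits of the study, with a median log2 fold change of -3.09, and their summed level was 277 to 439 CPM in WT and 42.8 to 116 CPM in ArKI. In the IS it was 13.1 to 88.9 CPM in WT and 2.16 to 6.65 CPM in ArKI. The part of sperm RNA in the traces of the testis proteases was not tested. Within the WT groups the traces amounted to 1.82 to 4.58 CPM in the IS and to 3.28 to 6.06 CPM in the caput, against 1355 to 1519 CPM in the WT testis, each tissue with its own scaling. Between the WT IS and the WT caput the ranges of the summed traces overlapped, whereas those of the summed markers did not. *Prss45* had 39 counts over the WT IS and 7 over the WT caput, and *Prss39* had 25 and 64.

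**Figure D4:**
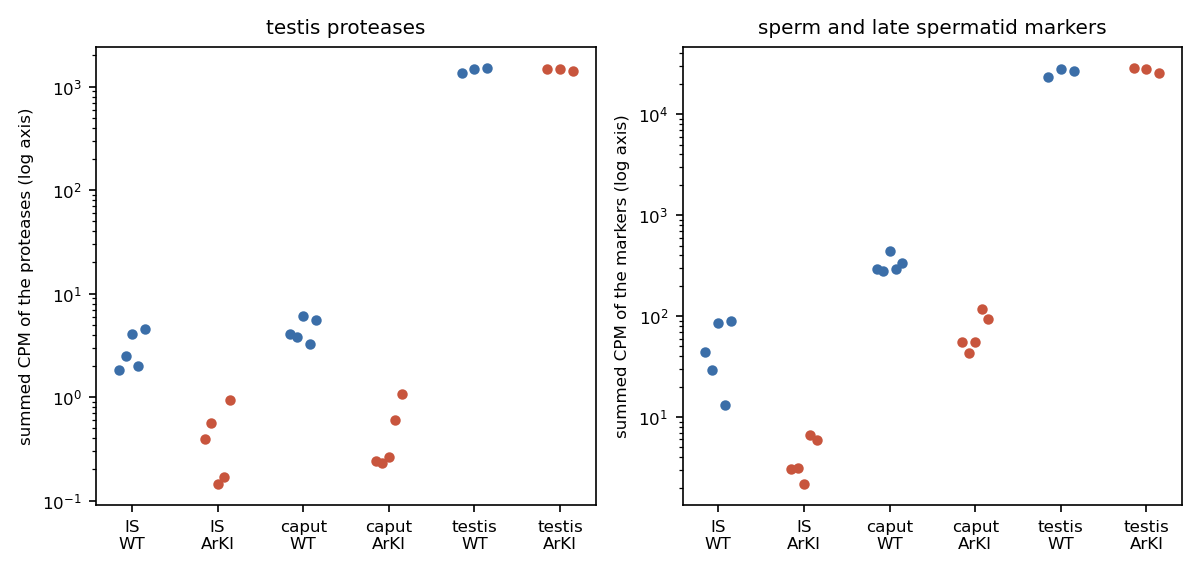
Summed CPM of the 19 testis proteases (left) and of the 13 sperm and late spermatid markers (right) in every sample of the 6 groups, with each tissue scaled on its own, on log axes. In the IS and caput all ArKI samples lie below all WT samples in both panels, and in the testis the genotypes share one range.

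Proteases related to these but outside the symbol rule, inhibitors and substrates were taken as 3 lists. Of 26 related proteases, 8 were tested in each duct segment and 9 in the testis, and none was called at the limits of the study. At an adjusted p below 0.05, 3 were higher and 2 lower in the ArKI IS, and 2 were higher in the caput and 1 in the testis, where the shares of all genes in either direction were 29.6%, 27.7% and 1.96%. The median log2 fold change was 0.23 in the IS, 0.22 in the caput and 0.20 in the testis, against 0.00 for all genes in each. The summed level of the list was nonetheless lower in the ArKI IS, 3454 to 3758 CPM in WT and 2462 to 2918 CPM in ArKI. Its largest part was *Ovch2*, at 3184 ± 128 CPM in WT and 2222 ± 173 CPM in ArKI (-0.52 ± 0.05, edgeR adjusted p = 3.9e-07). The mast cell markers, among them the tryptases *Tpsab1* and *Tpsb2*, summed to at most 3.58 CPM in any epididymal sample.

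Among 20 inhibitors of the Kunitz, Kazal and serpin types 12 were tested in the IS and 13 in the caput. *Serpine2*, an inhibitor of urokinase, thrombin and trypsin-like proteases, was upregulated in both segments, from 25.0 ± 2.30 to 54.8 ± 9.38 CPM in the IS (log2 fold change 1.13 ± 0.11, edgeR adjusted p = 3.5e-06) and from 9.39 ± 1.66 to 57.0 ± 7.54 CPM in the caput (2.59 ± 0.12, adjusted p = 8.7e-10). The Kazal inhibitors *Spink5* and *Spink11* were downregulated in the caput, from 2359 ± 265 to 839 ± 113 CPM and from 4705 ± 650 to 2255 ± 283 CPM (SD, n = 5). The study reported on *Spink* genes in these samples, so their direction is not independent evidence. In all, 1 of 12 was called higher in the IS, and 1 of 13 was called higher and 2 lower in the caput, against 2.72% of all genes higher in the IS and 2.43% higher and 2.55% lower in the caput. The median log2 fold change was 0.05 in the IS and -0.09 in the caput, against 0.00 for all genes. In the testis none of 8 was called, with a median of 0.33, and 2 were higher at an adjusted p below 0.05, *Serping1* (0.75 ± 0.09, edgeR adjusted p = 3.3e-05) and *Serpina5* (0.44 ± 0.07, adjusted p = 0.00092), against 1.96% of all genes in either direction. Beside them the 5 Leydig cell markers summed to 534 to 735 CPM in the WT testis and 890 to 962 CPM in the ArKI testis, with 2 of 5 higher at an adjusted p below 0.05, and the 8 leukocyte markers to 46.2 to 59.4 and 68.7 to 75.7 CPM, with 1 of 7 tested higher. The part of these cells in the levels of the inhibitors was not tested.

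Of 24 known substrates and partners, 9 were tested in the IS and 12 in the caput, and 1 was called higher in the IS and 2 higher and 2 lower in the caput, beside the same shares of all genes and 1.32% lower in the IS. *Scnn1b*, which encodes a subunit of the epithelial sodium channel, the channel that prostasin activates, was upregulated from 2.83 ± 0.56 to 12.8 ± 2.32 CPM in the IS (log2 fold change 2.18 ± 0.17, edgeR adjusted p = 1.1e-08) and from 0.551 ± 0.277 to 4.12 ± 0.66 CPM in the caput (2.87 ± 0.30, adjusted p = 1.7e-06). Its partner subunit *Scnn1g* rose in the caput from 0.518 ± 0.118 to 1.74 ± 0.40 CPM (1.78 ± 0.29, adjusted p = 0.00018). *Prss8* itself had log2 fold changes of 0.06 and 0.00. The other 2 genes called in the caput were lower, *Adam5* (-1.64 ± 0.23) and *Clgn* (-2.15 ± 0.37), a sperm surface protein and a chaperone of germ cells, beside the sperm markers above. *Agrn*, the substrate of neurotrypsin, was chosen for mention after its values were seen. It was lower in the ArKI IS, from 259 ± 10.8 to 197 ± 10.8 CPM (-0.39 ± 0.05, adjusted p = 2.6e-06), with log2 fold changes of -0.14 ± 0.06 in the caput (adjusted p = 0.092) and 0.35 ± 0.11 in the testis (adjusted p = 0.12). The median of the list was -0.15 in the IS and -0.13 in the caput, and in the testis none of 19 was called, with a median of 0.00.

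Promoters from 250 bases before to 50 bases after the start were available for 39 of the 55 genes in the RefSeq table for this build, in 48 windows. The cAMP response element TGACGTCA, read by the germ cell factor CREM and searched on both strands, was in none of the 48 windows and in 1.79% of 32851 windows of all genes. No match says only that these letters are not in these windows.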

How the data were processed

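Per the study's methods, single-end 50-base reads were aligned with STAR to mm10 and uniquely mapped reads were counted on RefSeq genes. The authors deposited raw counts per gene and sample. The submitters' notes list Subread 1.5.1 and bcl2fastq 1.8.4. Labels and methods name different library kits, and the strand setting of the counting is not given in the sources used here, so genes with exons opposite another gene (among them *Prss23*, *Prss12*, *Prss8*, *Tmprss13*) may hold its reads.

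Each comparison was fitted over all genes in R 4.3.3 with edgeR 4.0.16 (filterByExpr with 10 counts per sample and 15 in total as minima, TMM, robust quasi-likelihood test, Benjamini-Hochberg adjustment). The FDR and fold limits are the study's, but its ROTS test was not run. CPM used TMM within a tissue, also for summed levels set side by side across tissues. Levels per kb and the plot of all 55 genes used TMM over all 26 samples. Genes below the filter were compared by exact two-sided permutation on log2(CPM + 0.5), and ratios of counts have exact (Clopper-Pearson) 95% intervals. Values in every sample were given for genes with a call and for the 5 highest per kb in each WT tissue. Alternatives were RLE factors, library size only, no filter, limma 3.58.1, DESeq2 1.42.0, the replicate number as a block, no fold limit, and leaving out each sample. The methods name 5 mice per genotype for both epididymal segments without saying which samples share a mouse, and fits across segments treated samples as independent. The genes and lists were chosen with earlier results of these data known. The fits were tested on simulated data. Figures were drawn with matplotlib 3.10.9. The gene altered in ArKI mice is not reported here.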

Additional observations from a re-analysis of the deposited data

Results flagged for a closer look

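Of 32 groups of 5 samples checked for a sample far from the others, 2 had one, and chance gives about 1.6. *Prss23* in ArKI replicate 2 of the IS had 41.7 CPM, where the other 4 had 31.9 to 34.1 CPM. *Tmprss2* in ArKI replicate 2 of the caput, the library with the lowest total, had 15.7 CPM, where the other 4 had 8.90 to 10.8 CPM.

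The ArKI effect differed between the caput and the IS for 2 of 10 genes at an adjusted p below 0.05 by edgeR's interaction test, where 15.1% of all genes passed. That fit treated the IS and caput samples as independent. For *Prss23* the difference was 0.41 on the log2 scale and for *Tmprss13* it was -1.01.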

How the results depend on the processing

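The counts of genes called were recomputed 160 times, and 148 stayed within 1.5 times the reported count. The number higher in the ArKI IS was 0 to 2 with one sample left out. It was 0 without ArKI replicate 4, and 1 without ArKI replicate 5 or WT replicate 2. With no filter on low counts, 1 gene was called lower in the IS, 3 lower in the caput and 1 (*Prss16*, 0, 1 and 0 counts in WT and 4, 5 and 4 in ArKI) of 49 higher in the testis, against 0.764% of all genes. Between the WT segments 6 of 42 were then higher and 7 lower in the IS, against 8.79% and 10% of all genes. With an adjusted p under 0.05 with no fold limit, 3 were lower in the IS, and 1 was higher and 1 lower in the caput. Equal replicate numbers are not said to pair samples, and same-numbered samples did not all correlate above 0.1 in any pair of groups. The replicate block gave 1 gene, *Prss23*, for the interaction and changed no other count by over 1.5 times.

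Of 128 values of log2 fold changes 111 kept their direction and their side of 0.05, 17 lost the call and none reversed. The 17 belonged to *Prss12* and *Tmprss6* in the IS and *Tmprss2* in the caput. The fall of *Prss12* in the IS ranged from -0.73 to -0.50 over its alternatives, with adjusted p from 0.00049 to 0.094. Fold changes of *Prss53* between testis and duct turned from 0.46 to -0.03 with upper-quartile factors in the scaling. Depth limits genes with at most 3 counts per sample, among them all 19 testis proteases in the ArKI duct.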
